A study of Rattus norvegicus with 30 samples.

Results

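A list of 52 genes of the cell cycle and of DNA replication was followed in rat plantaris tendons after tenotomy and repair. The genes were chosen by name, with earlier results of these data known. Of the 52, 49 were among the 13124 genes of the count table. Ccnb2, Chek1 and E2f1 were not analysed here. All 49 genes passed the filter on expression, a mean of 3 CPM (counts scaled to 1e+06 per tendon) or more in 1 group or more, which left 12558 genes for testing. Some of them, such as Ttk, Anln, Rrm2 and Cdc6, were under 3 CPM in every control tendon and passed only through repaired groups. Such genes could hardly be found lower, which limits the counts of genes higher and of genes without overlap given below. The tendons came from 30 Sprague Dawley rats, which were males of about 3 months of age per the methods of the study. Control tendons (n = 3) had no surgery and no compound. The other tendons were cut, sutured and collected 7 or 21 days (7D, 21D) later from rats dosed by mouth with GSK2894631A, an inhibitor of hematopoietic prostaglandin D synthase, at 0, 2 or 6 mg/kg. There were 5, 4 and 3 tendons at 7D for 0, 2 and 6 mg/kg and 5 tendons per dose at 21D. Every repaired group therefore differed from control in the operation, the suture and the gavage together, and these cannot be told apart. Both plantaris tendons of a rat were operated on, and the RNA came from the tendon between muscle and bone. In bulk tissue of this kind, fewer cells of a type and less RNA per cell cannot be told apart.

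Total counts were 12405741 to 49909374 per tendon. The 3 control tendons stood apart from the 27 repaired tendons in what they contained. Of 30 listed skeletal muscle markers 25 were in the table, and these held 19.3 to 27.5% of the counts in controls, 0.173 to 1.29% in 7D tendons at 0 mg/kg, 0.00927 to 0.0122% at 7D with 2 or 6 mg/kg, and 0.0658 to 9.72% in 21D tendons. All 25 fell in 7D tendons at 0 mg/kg. Of 11 tendon markers 2 were higher and 4 lower in that group, and none was at 0 in any group. Of all genes tested, 35.8% were higher and 35.6% lower in that group than in control. No tendon was left out of the main results.

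A dividing cell first loads the Mcm2-7 helicase onto replication origins, then copies its DNA in S phase, and then separates the copies in mitosis under the control of cyclin-dependent kinases. Many of the genes needed are transcribed mainly in cycling cells. E2F factors act on genes of S phase, and a later wave of G2 and mitotic genes depends on a complex that contains B-Myb (Mybl2) and on Foxm1. Mature tendon is a tissue of few and mostly quiescent cells, whereas a healing tendon fills with dividing fibroblasts and with blood-borne cells.

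The promoters of 4 of the genes are shown here because Mcm2 and Mcm7, subunits of 1 helicase, changed unequally, and because Cdk1 and Ccnb1 encode the kinase and the cyclin that together drive entry into mitosis. Each is the 250 bases before the RefSeq transcription start in build GRCr8, and capitals mark matches on either strand to TTTNNCGC (an E2F site), TTTGAA (the cell cycle homology region, CHR) or CCAAT. Adjacent capitals can be overlapping matches.
Mcm2, chr4:122918095-122918344, minus strand: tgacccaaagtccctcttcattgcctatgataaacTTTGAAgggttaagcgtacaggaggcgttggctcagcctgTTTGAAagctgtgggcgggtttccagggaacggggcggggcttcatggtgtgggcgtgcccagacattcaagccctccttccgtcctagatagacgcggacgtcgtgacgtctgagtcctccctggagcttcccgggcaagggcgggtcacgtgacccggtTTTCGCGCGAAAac
Mcm7, chr12:22163179-22163428, minus strand: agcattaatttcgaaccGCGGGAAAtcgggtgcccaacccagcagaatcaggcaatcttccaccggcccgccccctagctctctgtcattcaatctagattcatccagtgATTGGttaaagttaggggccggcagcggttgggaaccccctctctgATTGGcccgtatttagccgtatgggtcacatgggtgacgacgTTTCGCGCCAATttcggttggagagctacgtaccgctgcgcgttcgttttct
Cdk1, chr20:19265043-19265292, plus strand: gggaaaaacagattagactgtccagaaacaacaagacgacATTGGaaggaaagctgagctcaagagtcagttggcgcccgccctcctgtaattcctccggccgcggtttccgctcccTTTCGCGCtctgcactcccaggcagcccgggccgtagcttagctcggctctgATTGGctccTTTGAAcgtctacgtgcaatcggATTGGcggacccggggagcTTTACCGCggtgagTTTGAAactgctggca
Ccnb1, chr2:33655226-33655475, minus strand: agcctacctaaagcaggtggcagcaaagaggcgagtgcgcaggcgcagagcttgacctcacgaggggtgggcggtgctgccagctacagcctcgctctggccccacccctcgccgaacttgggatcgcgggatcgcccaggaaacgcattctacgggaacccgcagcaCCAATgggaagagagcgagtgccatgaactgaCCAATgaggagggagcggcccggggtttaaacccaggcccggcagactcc
The Mcm2 window held 2 E2F matches and 2 CHR matches, the Mcm7 window 2 E2F and 3 CCAAT matches, the Cdk1 window matches of all 3 kinds, and the Ccnb1 window 2 CCAAT matches and none of the other kinds. A match is a stretch of letters and not a shown binding site. A promoter of this kind was available for 39 of the 49 genes. Of these 39 promoters, 35.9% held TTTGAA, 23.1% TTTNNCGC and 71.8% CCAAT. Over all 27457 promoters the shares were 16.1%, 4.27% and 34.2%, and over the 9792 promoters of counted genes they were 10.3%, 6.95% and 35.4%. Within the list the E2F letters were found in 5 of 9 promoters of the S phase licensing and fork genes, 1 of 7 for the mitotic and checkpoint kinases, 1 of 6 for spindle and kinetochore, 0 of 5 for cytokinesis and 0 of 5 for chromosome structure. The CHR letters were in 1 of 9, 1 of 7, 1 of 6, 4 of 5 and 5 of 5 promoters of the same groups, so the mitotic groups were not alike. The cyclin, Cdk1 and anaphase-promoting complex genes had E2F letters in 1 of 4 and CHR letters in 2 of 4.

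Compared to control tendons, most of the genes rose after repair. At 7D and 0 mg/kg 42 of the 49 genes were higher and 1 was lower at an adjusted p under 0.05, by the quasi-likelihood test of edgeR, adjusted over all genes tested by the Benjamini-Hochberg procedure, which is the source of every adjusted p given. Over all genes tested, 35.8% were higher and 35.6% lower in that comparison, so a call in one direction was itself common. The median log2 fold change of the 49 genes was 2.36. In 21D tendons at 0 mg/kg 41 genes were higher and 1 lower, with a median of 1.95, and 32.2% of all genes were higher and 33.7% lower. The 2 comparisons share the 3 control tendons. Over all genes, 4042 were higher and 4232 lower at 21D and 0 mg/kg than in control. For that comparison the paper reports far fewer transcripts up or down. The paper's calls also required a minimum fold change, as stated for 7D, which the calls given here did not. The reason for the gap was not tested. Of the 42 genes that rose by 7D at 0 mg/kg, 12 rose by at least 8-fold, 18 by 4-fold to under 8-fold, 8 by 2-fold to under 4-fold and 4 by less than 2-fold. Some of the largest folds rest on few control counts, such as those of Ttk, Bub1b, Anln and Rrm2. These genes also passed the filter on expression only through repaired groups. The plot of fold changes by role sets the genes side by side.

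**Figure D1:**
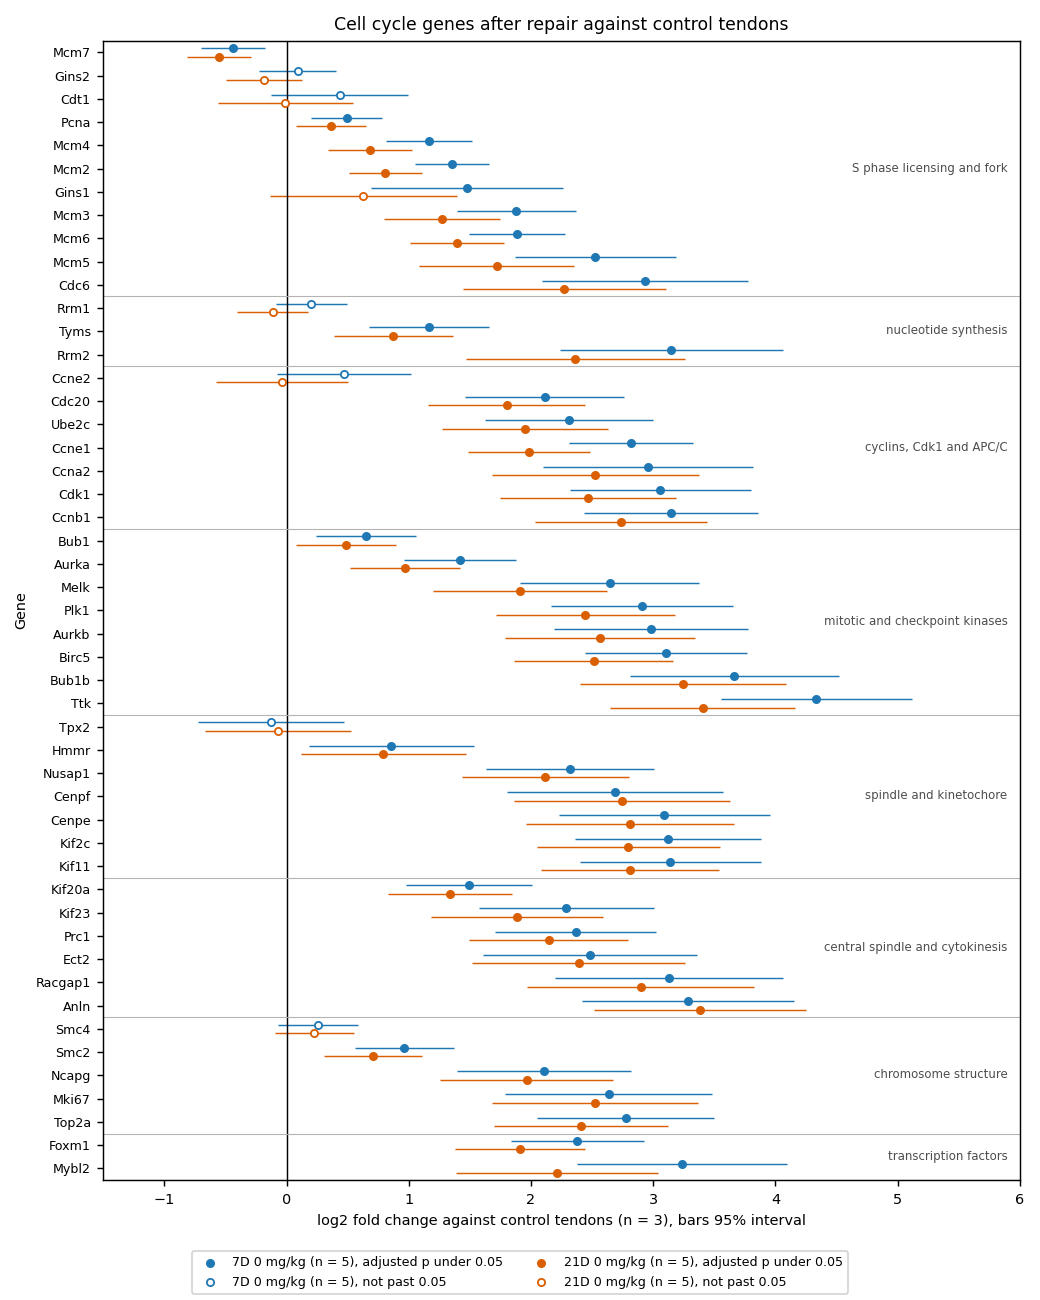
Log2 fold change of each of the 49 cell cycle genes in 7D 0 mg/kg (blue) and 21D 0 mg/kg (orange) tendons against control tendons, with 95% intervals. Genes are grouped by role, filled points passed an adjusted p of 0.05, and Ttk, at 4.34 at 7D and 3.40 at 21D, was the farthest to the right.

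The scale of these changes rests on how the tendons are put on a common footing. The main scaling, TMM, gave factors of 0.599 to 0.789 in control tendons and 0.9504 to 1.095 in repaired tendons. The lowest factor was that of control replicate 4. That tendon had the highest muscle share (27.5%) and the fewest total counts (20446525) of the 3 controls. Scaling by library size alone moved the median log2 fold change of all genes at 0 mg/kg from 0.048 to 0.641 at 7D and from 0.029 to 0.587 at 21D. All genes then split into 7474 higher and 2418 lower at 7D, against 4493 and 4473 with TMM, and 47 of the 49 genes were higher and 0 lower at either time. Cdt1, Gins2, Rrm1, Ccne2 and Smc4, which did not pass at 7D with TMM, then did so, at 1.10, 0.68, 0.83, 1.12 and 0.86. The summed CPM of the 49 genes was 420.0, 439 and 461 in the 3 control tendons and 901 to 1135 in the 7D tendons at 0 mg/kg, with no overlap. With scaling by library size only it was 276 to 331 and 945 to 1210. With the 25 muscle markers also left out of those totals, and again no TMM factor, it was 381 to 411 and 947 to 1212. The part of the muscle content in these differences was not tested beyond that.

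Of the 11 genes of origin licensing and the replication fork, 8 rose in 7D tendons at 0 mg/kg and 1, Mcm7, fell, though not with scaling by library size only. Cdc6, which loads the helicase onto origins, had the largest change of the group at 2.93 ± 0.41 (log2 ± SE, adjusted p = 8.37e-07). Without control replicate 3 this became 3.81. Its control tendons had 5, 22 and 4 counts, so the size of this fold is uncertain. Mcm2, Mcm3, Mcm4, Mcm5 and Mcm6, subunits of the replicative helicase, rose by 1.36, 1.88, 1.16, 2.53 and 1.89. Mcm2 stood at 14.7, 19.1 and 13.7 CPM in the 3 control tendons and at 34.5, 37.96, 47.4, 43.6 and 39.97 CPM in the 7D tendons at 0 mg/kg. At 21D and 0 mg/kg its values were 22.4, 30.8, 33.8, 27.98 and 24.00 CPM. All 10 repaired tendons were above all controls. Mcm5 had 4.34, 5.49 and 2.53 CPM in control, 20.4, 24.6, 27.4, 22.9 and 25.1 CPM at 7D and 9.90, 21.3, 13.9, 14.2 and 9.45 CPM at 21D, again without overlap with control.

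Mcm7 (ENSRNOG00000001349, chromosome 12 of rn6), the remaining subunit of the same helicase, was the only gene of the list that was lower, at -0.44 ± 0.13 at 7D (adjusted p = 0.00374) and -0.55 ± 0.13 at 21D (adjusted p = 0.000584), although with scaling by library size only its values were 0.18 and 0.031, neither past the threshold (adjusted p = 0.173 and 0.823). Its level was 46.7, 42.6 and 60.9 CPM in control tendons, 33.9, 37.99, 40.00, 38.4 and 34.1 CPM at 7D and 0 mg/kg and 36.7, 31.4, 36.3, 30.5 and 35.5 CPM at 21D and 0 mg/kg. In these groups no repaired tendon reached the lowest control. With the compound, the values at 7D were 31.5, 34.7, 31.3 and 45.2 CPM at 2 mg/kg and 31.6, 42.7 and 39.4 CPM at 6 mg/kg, where 1 tendon of each group passed the lowest control. The 21D values were 32.1, 32.2, 40.4, 31.2 and 35.8 CPM at 2 mg/kg and 41.9, 36.4, 41.98, 33.3 and 37.8 CPM at 6 mg/kg, all below the controls. At 6 mg/kg the call was lost at 7D without control replicate 4 or without 7D 6 mg/kg replicate 1, and at 21D without control replicate 4. The introns of Mcm7 hold the genes of 3 microRNAs, Mir25, Mir93 and Mir106b, and the counts do not separate them.

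A ratio of counts within a tendon needs no scaling between tendons. The ratio of Mcm2 to Mcm7 counts was 0.225 to 0.449 in control tendons, 0.999 to 1.19 in 7D tendons at 0 mg/kg and 0.61 to 0.979 in 21D tendons at 0 mg/kg. That of Mcm5 to Mcm7 was 0.0415 to 0.129, 0.596 to 0.736 and 0.266 to 0.678. The ratios of Mcm3, Mcm4 and Mcm6 to Mcm7 likewise did not overlap between control and either repaired group. These ratios were chosen after the unequal changes had been seen and share Mcm7 and the 3 controls, so they are a description with no test, and they do not say which of the genes moved.

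**Figure D2:**
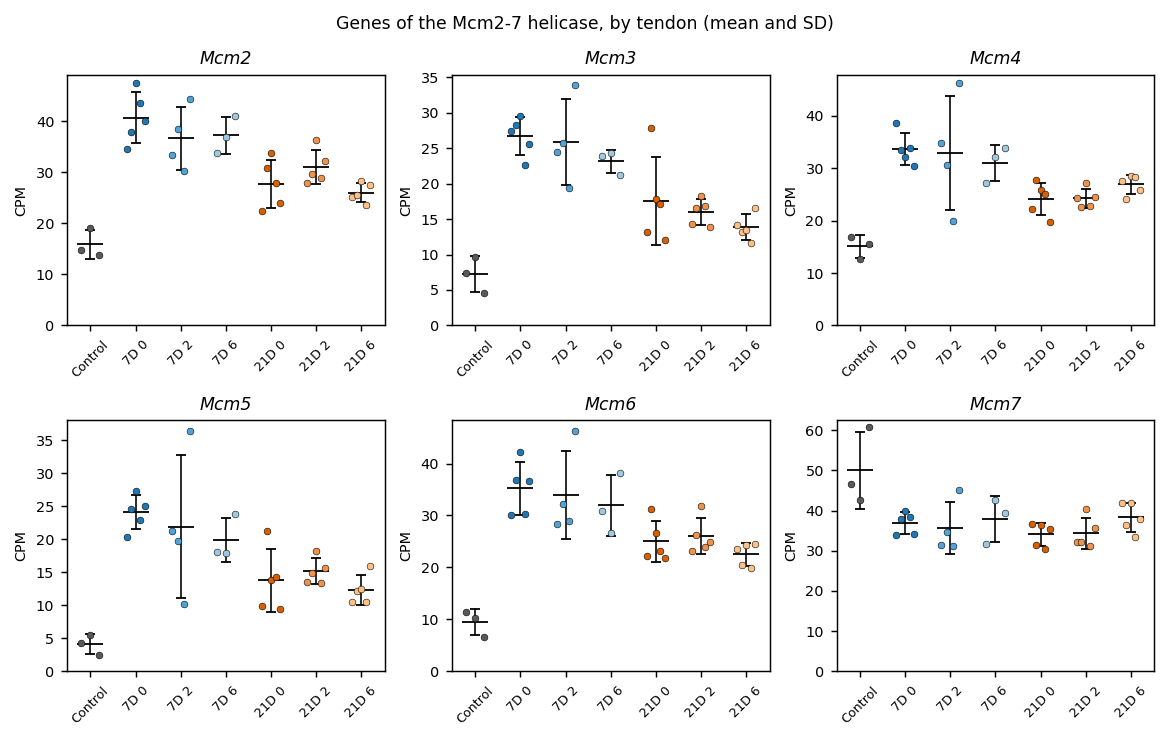
CPM of the 6 genes of the Mcm2-7 helicase in each tendon, by group (7D and 21D with the dose in mg/kg). Points are tendons, and bars the mean and SD. Mcm2 to Mcm6 sit higher in every repaired group than in control, whereas Mcm7 sits at 42.6 to 60.9 CPM in control and 30.5 to 45.2 CPM after repair, on the TMM scale, and is not lower with scaling by library size only.

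Pcna (ENSRNOG00000021264, chromosome 3), the sliding clamp of the replication fork, had the highest mean CPM of its group and changed little. Control tendons had 52.6, 52.3 and 64.3 CPM. At 7D the values were 97.2, 72.7, 80.2, 69.6 and 76.9 CPM for 0 mg/kg, 86.02, 92.6, 64.5 and 113 CPM for 2 mg/kg and 71.7, 78.4 and 87.6 CPM for 6 mg/kg. Those at 21D were 71.6, 87.9, 66.3, 69.8 and 66.5 CPM for 0 mg/kg, 61.2, 78.9, 69.1, 78.4 and 70.1 CPM for 2 mg/kg and 77.6, 66.3, 80.6, 69.5 and 78.3 CPM for 6 mg/kg. The groups nearly touched, and 1 tendon at 21D and 2 mg/kg fell within the control range. Pcna rose by 0.49 ± 0.14 at 7D and 0 mg/kg (adjusted p = 0.00323) and by 0.36 ± 0.14 at 21D (adjusted p = 0.0264), and the 21D call was lost without control replicate 2 or 3 or without 21D replicate 2. Gins1, a part of the active helicase, rose by 1.48 ± 0.38 at 7D and had 0.63 at 21D (adjusted p = 0.138). Gins2, another part, had 0.089 and -0.19, and Cdt1, the partner of Cdc6 in loading, 0.43 and -0.01, none of them past the threshold. Without control replicate 4, Cdt1 passed at 7D with 0.89 (adjusted p = 0.00564). Gins2 lies across Gse1 in RefSeq, and its reads may be shared with it.

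Of 3 genes of nucleotide synthesis 2 rose. Rrm2, the inducible subunit of ribonucleotide reductase, rose by 3.15 ± 0.44 at 7D and 0 mg/kg, or 8.86-fold, and by 2.36 ± 0.44 at 21D. Its control tendons had 11, 8 and 1 counts, the last of them under the floor of 3 counts, so the size of this fold is uncertain. Tyms, which makes thymidylate, rose by 1.17 ± 0.24 and 0.87 ± 0.24, the 21D call being lost in a fit of the compared groups only (0.90, adjusted p = 0.0689). Rrm1 (ENSRNOG00000045752, chromosome 1), the other subunit of the same reductase, had 57.8, 52.3 and 78.9 CPM in control tendons. Its values at 7D were 80.8, 71.5, 81.3, 64.7 and 63.9 CPM for 0 mg/kg, 72.5, 75.2, 58.7 and 102 CPM for 2 mg/kg and 64.8, 70.7 and 78.00 CPM for 6 mg/kg. At 21D they were 49.8, 67.4, 57.8, 55.8 and 60.2 CPM for 0 mg/kg, 56.8, 56.7, 61.9, 57.03 and 56.2 CPM for 2 mg/kg and 67.4, 55.03, 57.1, 62.5 and 66.1 CPM for 6 mg/kg. Control and repaired tendons overlapped throughout. The difference from control was 0.20 at 7D (95% interval -0.089 to 0.49, adjusted p = 0.204) and -0.11 at 21D, and without control replicate 4 the 7D value passed narrowly at 0.34 (adjusted p = 0.0495).

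Among the 7 cyclin, Cdk1 and anaphase-promoting complex genes, 6 rose at both times. Ccnb1 and Ccna2, the mitotic cyclins, rose by 3.15 ± 0.35 and 2.96 ± 0.42 at 7D and 0 mg/kg. Cdk1 (ENSRNOG00000000632, chromosome 20), the kinase they switch on, had 2.50, 1.64 and 3.84 CPM in control tendons. The 7D values were 19.00, 21.8, 29.1, 20.4 and 18.1 CPM for 0 mg/kg, 15.1, 21.5, 11.7 and 34.9 CPM for 2 mg/kg and 16.8, 22.4 and 26.5 CPM for 6 mg/kg. The 21D values were 12.9, 17.8, 15.8, 14.98 and 10.3 CPM for 0 mg/kg, 14.4, 8.93, 21.3, 13.2 and 11.8 CPM for 2 mg/kg and 20.1, 12.4, 11.4, 14.9 and 17.6 CPM for 6 mg/kg. Every repaired tendon was above every control tendon, the nearest being 21D 2 mg/kg replicate 2. Its mean went from 2.66 ± 1.11 CPM (SD, n = 3) to 21.7 ± 4.41 CPM (n = 5) at 7D and 14.3 ± 2.85 CPM (n = 5) at 21D, and its fold changes were 8.34 and 5.52 (adjusted p = 5.64e-08 and 1.68e-06). Ube2c and Cdc20, which drive the destruction of cyclins by the anaphase-promoting complex, rose by 2.31 and 2.11 at 7D. The E cyclins, which act at the entry to S phase, were unlike each other. Ccne1 rose by 2.82 ± 0.25, whereas Ccne2 had 0.47 ± 0.27 (adjusted p = 0.117), which passed only without control replicate 4 (0.82, adjusted p = 0.0147) among the tendons left out. The difference between Ccne1 and Ccne2 was not tested.

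All 8 genes of the mitotic and checkpoint kinases, with Birc5 counted among them, rose at both times. Ttk, the kinase that starts the spindle checkpoint, changed most of the 49 genes, by 4.34 ± 0.38 at 7D and 0 mg/kg (adjusted p = 6.74e-10). It had 0.566, 0.441 and 0.408 CPM in control tendons, 9.13, 8.60, 12.2, 9.96 and 8.58 CPM at 7D and 4.56, 7.67, 5.26, 4.90 and 3.01 CPM at 21D. The control values are low, though above the floor of 3 counts, which lay at 0.0601 to 0.242 CPM. Bub1b, a checkpoint protein that restrains Cdc20, rose by 3.66 ± 0.42, and by 4.36 without control replicate 3, the control in which it was highest. Aurkb and Birc5, both of the chromosomal passenger complex, rose by 2.98 and 3.10, and Plk1, Melk and Aurka by 2.90, 2.64 and 1.42. Bub1 (ENSRNOG00000032778, chromosome 3), a kinase of the same checkpoint, had the highest mean CPM of this group and a small change. Control tendons had 16.9, 13.98 and 13.1 CPM. At 7D there were 24.1, 26.1, 23.6, 20.2 and 21.2 CPM for 0 mg/kg, 20.3, 24.5, 13.8 and 31.6 CPM for 2 mg/kg and 23.4, 24.4 and 25.5 CPM for 6 mg/kg. At 21D there were 21.9, 23.2, 20.99, 19.6 and 16.9 CPM for 0 mg/kg, 20.9, 15.02, 28.3, 16.5 and 20.9 CPM for 2 mg/kg and 27.9, 19.8, 21.3, 19.9 and 23.5 CPM for 6 mg/kg. Its 0 mg/kg and 6 mg/kg tendons lay above the controls, and 3 tendons at 2 mg/kg fell among them. Bub1 rose by 0.65 ± 0.20 at 7D (adjusted p = 0.00557), a call lost without control replicate 4, and by 0.48 ± 0.20 at 21D (adjusted p = 0.0351), a call lost without control replicate 3 or 4 or without 21D replicate 1 or 2.

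Of 7 spindle and kinetochore genes 6 rose. Kif11, the motor that pushes the spindle poles apart, Kif2c, which shortens microtubules, and Cenpe, a kinetochore motor, rose by 3.14, 3.12 and 3.09 at 7D and 0 mg/kg. Cenpf, another kinetochore protein, rose by 2.69 and Nusap1, which bundles microtubules, by 2.32. Hmmr rose by 0.86 ± 0.33 (adjusted p = 0.0228), and this call was lost without control replicate 2 or 4. At 21D it was 0.79 ± 0.33 (adjusted p = 0.0366), lost without any 1 of the 3 controls, or without 21D replicate 1, 2 or 4. The paper uses Hmmr as a marker of M2 macrophages and reports no difference from control at 7D in its RNA sequencing. Its qPCR had Hmmr lower at 21D than at 7D for 0 mg/kg, a comparison in which Hmmr was not called here. The reason for these gaps was not tested. Tpx2 (ENSRNOG00000008165, chromosome 3), which activates Aurka on the spindle, passed in no group. Its control tendons had 12.2, 24.4 and 29.1 CPM, a wide spread. At 7D the tendons had 16.9, 21.01, 25.1, 20.5 and 16.5 CPM for 0 mg/kg, 10.97, 16.8, 9.39 and 24.3 CPM for 2 mg/kg and 16.8, 18.2 and 21.8 CPM for 6 mg/kg. At 21D they had 23.7, 18.2, 19.8, 20.3 and 21.9 CPM for 0 mg/kg, 17.7, 9.74, 23.9, 13.2 and 16.2 CPM for 2 mg/kg and 25.04, 23.8, 13.1, 16.4 and 16.01 CPM for 6 mg/kg. All groups overlapped with control, and the difference at 7D and 0 mg/kg was -0.13 with a 95% interval of -0.72 to 0.47, or 0.49 (adjusted p = 0.115) with scaling by library size only.

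The 6 genes of the central spindle and cytokinesis all rose at both times. Anln, the scaffold of the contractile ring, rose by 3.28 ± 0.42 at 7D and 3.38 ± 0.42 at 21D at 0 mg/kg, from 0.566, 0.441 and 0.245 CPM in control to 3.37, 5.75, 4.53, 3.59 and 3.92 CPM and 4.25, 4.94, 5.30, 5.88 and 2.31 CPM. Its control tendons had 12, 11 and 3 counts, the last of them at the floor, so the size of these folds is uncertain. Racgap1 and Kif23 form centralspindlin, and rose by 3.13 and 2.29 at 7D. Ect2, the activator of RhoA that they recruit, rose by 2.48, and Kif20a, a motor of the midzone, by 1.49. Prc1 (ENSRNOG00000013057, chromosome 1), which crosslinks the midzone microtubules, had 8.96, 7.17 and 6.53 CPM in control tendons. Its 7D values were 36.5, 43.5, 46.5, 35.8 and 32.9 CPM for 0 mg/kg, 25.03, 36.00, 16.3 and 41.9 CPM for 2 mg/kg and 28.8, 25.1 and 37.2 CPM for 6 mg/kg. Its 21D values were 26.7, 46.2, 37.5, 36.4 and 20.7 CPM for 0 mg/kg, 39.5, 20.1, 53.6, 27.4 and 31.9 CPM for 2 mg/kg and 44.8, 27.5, 28.9, 41.3 and 38.7 CPM for 6 mg/kg. All 27 repaired tendons were above the 3 controls, and Prc1 rose 5.15-fold at 7D and 4.42-fold at 21D for 0 mg/kg (adjusted p = 5.12e-07 and 2.93e-06).

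Of 5 genes of chromosome structure 4 rose. Top2a, which untangles the copied DNA, and Mki67, the source of the Ki-67 antigen used to count cycling cells, rose by 2.77 ± 0.35 and 2.64 ± 0.41 at 7D and 0 mg/kg. Ncapg, a condensin subunit, rose by 2.11, and Smc2, one arm of the condensin ring, by 0.96. Smc4 (ENSRNOG00000010274, chromosome 2), the other arm, had 47.9, 36.01 and 41.2 CPM in control tendons. At 7D it had 49.9, 49.5, 51.9, 50.7 and 47.1 CPM for 0 mg/kg, 45.2, 53.8, 31.99 and 59.6 CPM for 2 mg/kg and 58.5, 58.02 and 60.2 CPM for 6 mg/kg. At 21D it had 41.1, 59.2, 51.5, 49.9 and 42.4 CPM for 0 mg/kg, 48.7, 38.4, 62.4, 42.2 and 45.6 CPM for 2 mg/kg and 54.6, 44.05, 46.1, 48.1 and 54.7 CPM for 6 mg/kg. The control range was entered by tendons of every group but 7D 6 mg/kg, the only group in which Smc4 passed, at 0.50 ± 0.18 (adjusted p = 0.0151). At 7D and 0 mg/kg the value was 0.26 (95% interval -0.069 to 0.58).

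Both transcription factors rose. Mybl2, which acts in the complex that reads CHR elements, rose by 3.24 ± 0.42 at 7D and 0 mg/kg, from 1.74, 1.40 and 0.49 CPM in control to 8.58, 13.5, 15.2, 10.5 and 11.4 CPM. Foxm1 (ENSRNOG00000005936, chromosome 4) had 2.59, 2.36 and 2.45 CPM in control tendons, the tightest controls of the genes shown in full. At 7D the values were 10.2, 14.4, 13.9, 13.5 and 12.2 CPM for 0 mg/kg, 9.05, 10.03, 6.55 and 12.3 CPM for 2 mg/kg and 10.8, 8.85 and 11.3 CPM for 6 mg/kg. At 21D the values were 8.31, 13.8, 9.83, 8.79 and 5.74 CPM for 0 mg/kg, 9.20, 6.55, 15.2, 7.83 and 10.6 CPM for 2 mg/kg and 9.56, 7.93, 8.20, 8.65 and 8.69 CPM for 6 mg/kg. Every repaired tendon was above every control, and Foxm1 rose 5.20-fold at 7D and 3.76-fold at 21D (adjusted p = 2.47e-08 and 9.25e-07). Its gene lies across Tex52 in RefSeq. In all, 12 of the 49 genes overlap another protein-coding gene in that annotation, among them Rrm2, Ccne2, Aurka, Plk1, Kif11, Nusap1, Anln, Kif20a and Ncapg, and whether the counting used strand is not given in the sources used here.

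**Figure D3:**
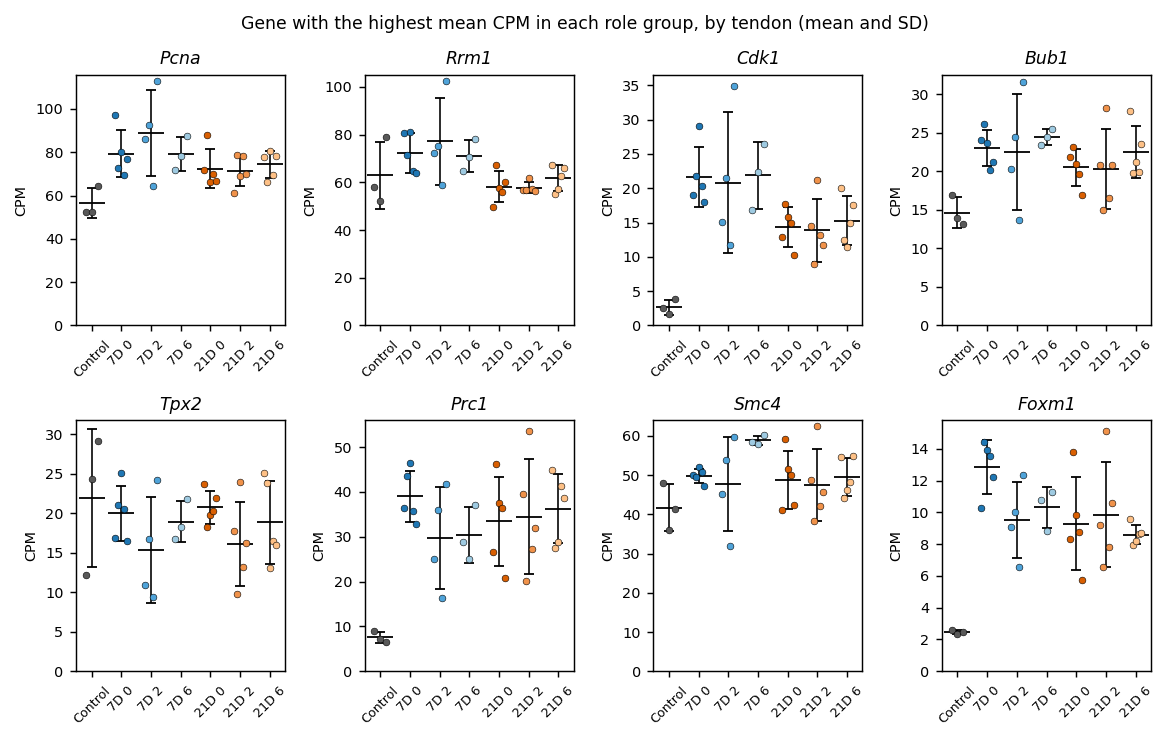
CPM of the gene with the highest mean CPM in each of the 8 role groups, in each tendon, by group (7D and 21D with the dose in mg/kg). Points are tendons, and bars the mean and SD. Cdk1, Prc1 and Foxm1 are higher in all 27 repaired tendons than in any control, whereas Rrm1, Tpx2 and Smc4 overlap with control.

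The same pattern was seen with the compound, against the same 3 control tendons. At 7D and 2 mg/kg, 42 genes rose and 1 fell (over all genes 35.8% and 34%), and at 6 mg/kg again 42 and 1 (34.1% and 33.8%), with medians of 2.10 and 2.17. At 21D, 42 rose and 1 fell at 2 mg/kg (33.8% and 35.3%) and 41 and 1 at 6 mg/kg (30.8% and 33.3%), with medians of 1.93 and 1.90. In all 6 repaired groups 40 of the 49 genes were higher, and Mcm7 was the 1 gene lower in all 6, a call absent in each with scaling by library size only. Calls in all 6 groups were not counted over all genes. From the lowest share of any group, at most 30.8% of all genes can be higher and 33.3% lower in all 6. With TMM, Cdt1, Gins2, Rrm1 and Tpx2 passed in none. Ccne2, Gins1, Hmmr and Smc4 passed in some of the groups. In 37 genes all 27 repaired tendons were above all 3 controls, a pattern that 18.6% of all genes tested showed, and in 12 the 2 sets overlapped. No gene of the list had all repaired tendons below all controls, which 22.1% of all genes did.

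**Figure D4:**
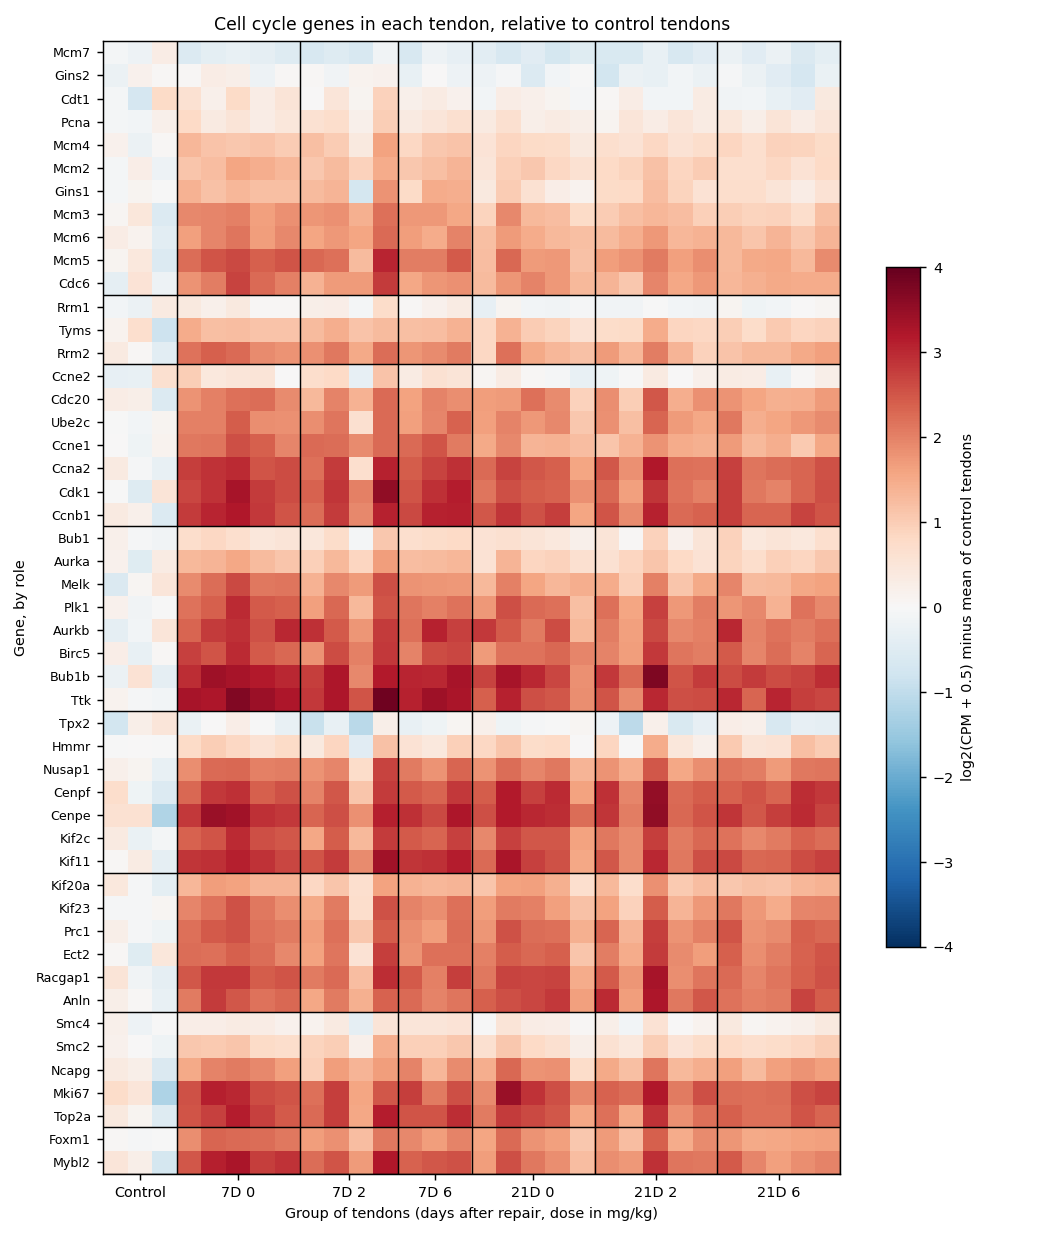
Level of each of the 49 cell cycle genes in each of the 30 tendons, as log2(CPM + 0.5) minus the mean of the control tendons, with genes by role and tendons by group (7D and 21D with the dose in mg/kg). Red is higher and blue lower than control, and the fourth tendon shown at 7D 2 mg/kg is the reddest of its group and the third the palest.

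Tendons of a group differed in the total of these transcripts. The summed CPM of the 49 genes was 594 in 7D 2 mg/kg replicate 4 and 1244 in replicate 5 of the same group, the lowest and the highest of the 27 repaired tendons. The ranges were 868 to 1031 at 7D and 6 mg/kg, 608 to 1011 at 21D and 0 mg/kg, 643 to 1071 at 21D and 2 mg/kg, and 722 to 870 at 21D and 6 mg/kg. Genes with high counts weigh most in such a sum.

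Markers of other cells moved with repair as well. In 7D tendons at 0 mg/kg 9 of 9 activated fibroblast markers, 10 of 13 macrophage markers, 10 of 10 T cell markers, 4 of 4 B cell markers, 3 of 4 neutrophil markers and 4 of 8 endothelial markers were higher than in control, and none was lower. Over all genes tested, 35.8% were higher and 35.6% lower in that comparison. Summed activated fibroblast markers went from 4436 to 15060 CPM in control to 58600 to 75830 CPM in that group, macrophage markers from 494 to 2198 CPM to 2501 to 5878 CPM, and T cell markers from 16.2 to 93.4 CPM to 117 to 322 CPM. B cell markers had 0.408 to 1.41 CPM and 3.47 to 19.3 CPM, and 1 of the 4 was at 0 in every control. Neutrophil markers had 4.49 to 14.7 CPM in control, 52.5 to 106 CPM in 7D tendons at 0 mg/kg and 7.91 to 25.8 CPM in 21D tendons at 0 mg/kg. Endothelial markers had 237 to 838 CPM in control and 713 to 1102 CPM at 7D. The part of these cells in the changes of the cell cycle genes was not tested.

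Between 7D and 21D few of the genes passed the test, and those that did were lower at 21D. At 0 mg/kg 46 of the 49 values were below 0, with a median log2 fold change of -0.37. In this comparison 5 genes were lower, or 10.2% of the 49, and 0 were higher, against 2.47% lower and 2.88% higher over all genes tested. The 5 were Ccne1 (-0.83 ± 0.18, adjusted p = 0.0105), Mcm2 (-0.55 ± 0.12, adjusted p = 0.0116), Mcm4 (-0.48 ± 0.14, adjusted p = 0.0436), Ttk (-0.93 ± 0.25, adjusted p = 0.0282) and Mybl2 (-1.02 ± 0.30, adjusted p = 0.0456). At 2 mg/kg 4 genes were lower, or 8.16% against 5.98% of all genes, namely Ccne1, Rrm1, Mcm3 and Mcm4 at -0.79, -0.42, -0.69 and -0.44. At 6 mg/kg 3 were lower, or 6.12% against 4.55%, namely Ccne1, Mcm2 and Mcm3 at -0.98, -0.52 and -0.74. No gene was higher at 2 or 6 mg/kg, against 7.09% and 8.54% of all genes, and the largest positive value, that of Anln at 2 mg/kg, was 0.81 ± 0.31 (adjusted p = 0.0874). DESeq2 called 0, 1 and 0 genes higher at the 3 doses. The medians were -0.19 at 2 mg/kg and -0.26 at 6 mg/kg.

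Ccne1 was the 1 gene lower at all 3 doses, with adjusted p of 0.0105, 0.00663 and 0.00269. Its 7D tendons had 5.26, 5.31, 7.52, 6.46 and 4.69 CPM at 0 mg/kg, 5.85, 5.83, 4.42 and 5.84 CPM at 2 mg/kg and 5.97, 7.11 and 5.17 CPM at 6 mg/kg. Its 21D tendons had 3.34, 4.50, 2.95, 2.99 and 2.62 CPM for 0 mg/kg, 2.38, 2.96, 4.15, 3.24 and 3.10 CPM for 2 mg/kg and 3.85, 2.75, 3.10, 2.28 and 3.39 CPM for 6 mg/kg. The 7D and 21D tendons of a dose did not overlap at any of the 3 doses, and all were above the controls, at 0.849, 0.681 and 0.979 CPM. Ccne1 stayed past the threshold whichever single tendon was left out, at each dose. Mcm2 did so at 0 mg/kg, and at 6 mg/kg it was lost without 7D replicate 5. At 0 mg/kg Mcm4, Mybl2 and Ttk were lost on leaving out 9, 8 and 5 of the 10 tendons, 1 at a time, and Mybl2 also missed the threshold with library size only (adjusted p = 0.0522) or with the compared groups only (adjusted p = 0.0577). At 2 mg/kg Mcm4 missed it with RLE scaling (adjusted p = 0.0523), with no filter (0.0645) or with the compared groups only (0.148). Mcm4 also missed it without the tendons over 5% muscle counts (0.0584), although none of those tendons was at 2 mg/kg. Rrm1 missed it with the compared groups only (0.0597). Leaving out 1 of the 9 tendons at 2 mg/kg ended the call of Mcm4 in 7 cases, of Rrm1 in 6 and of Mcm3 in 2, and at 6 mg/kg that of Mcm3 ended in 4 of 8 cases.

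Role groups differed in how far the level at 21D lay below that at 7D, by value. At 0 mg/kg the medians were -0.49 for the S phase licensing and fork genes, -0.43 for cyclins, Cdk1 and anaphase-promoting complex genes, -0.45 for the kinases, -0.32 for nucleotide synthesis and -0.75 for the 2 transcription factors. They were -0.20 for spindle and kinetochore, -0.19 for cytokinesis and -0.14 for chromosome structure, with no gene called in these 3 groups. Unadjusted p-values were under 0.05 for 8 of 11 genes of the S phase group and for 0 of 18 genes in the last 3 groups, against 2981 of the 12558 genes tested. The difference between role groups was not tested, and the groups share the same tendons.

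**Figure D5:**
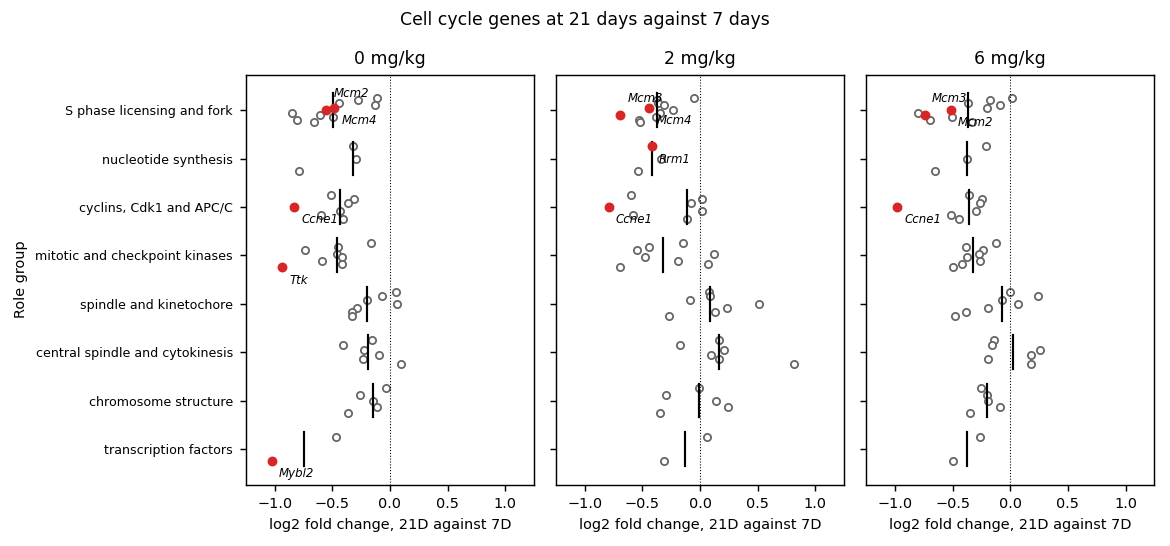
Log2 fold change of each of the 49 genes at 21D against 7D at 0, 2 and 6 mg/kg, by role group. Each point is a gene, filled red points with names passed an adjusted p of 0.05, and the black lines are group medians. Ccne1 lies at -0.83, -0.79 and -0.98, and the median of the S phase genes lies to the left of that of the cytokinesis genes at each dose.

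The number of genes called between the times depended on single tendons. At 0 mg/kg it was 13 without 21D replicate 2, the tendon with the highest summed CPM of its group, 3 without 7D replicate 2 or 5 or 21D replicate 3, and 2 without 7D replicate 3 or 4 or 21D replicate 1, 4 or 5. At 2 mg/kg it was 10 without 7D replicate 4, 1 without 7D replicate 5 or 21D replicate 1, and 2 without 7D replicate 3 or 21D replicate 2, 4 or 5. Muscle content moved with time too. All 25 muscle markers had a positive value from 7D to 21D at 0 mg/kg, with a median of 2.58, and 2 passed. Of all genes tested, 2.88% were higher in that comparison. Without the 5 repaired tendons over 5% muscle counts, all of them at 21D, no gene was called at 0 or 6 mg/kg, and Ccne1 had -0.75 (adjusted p = 0.0975) and -0.90 (adjusted p = 0.108).

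No dose effect was detected in these genes. Across the 3 doses 0 of the 49 genes passed at 7D, where 2.05% of all genes did, and 0 passed at 21D, where no gene tested did. The smallest adjusted p of the 49 genes was 0.558 at 7D and 0.551 at 21D. An unadjusted p under 0.05 was found for 0 of the 49 at either time, against 1576 of all 12558 genes at 7D and 1366 at 21D. DESeq2 also called 0 of the 49. The test of whether the dose effect differed between 7D and 21D called 0 of the 49 and 0.39% of all genes, with a smallest adjusted p of 0.836 in the list. Between pairs of doses the median log2 differences at 7D were -0.20 for 2 against 0 mg/kg, where 45 of the 49 values were below 0, -0.12 for 6 against 0 mg/kg and 0.10 for 6 against 2 mg/kg. At 21D they were -0.016, -0.037 and 0.010. None of these pairs had a gene of the list past the threshold. Over all genes, 0.908% were higher and 1.45% lower for 2 against 0 mg/kg at 7D and 0.39% lower for 6 against 0 mg/kg, and no gene passed for the other pairs. The widest value at 7D was that of Cenpe, -0.59 at 2 against 0 mg/kg.

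How large a dose effect these tendons could have hidden is given by the 95% intervals. A 2-fold difference in either direction lay outside the interval for 40, 44 and 40 of the 49 genes at 7D, for 2 against 0, 6 against 0 and 6 against 2 mg/kg. At 21D it lay outside for 48, 49 and 49. The intervals at 7D ran as low as -1.27, for 6 against 0 mg/kg. A smaller effect was therefore not detectable at these group sizes in every gene, and the missed threshold does not show that the doses act alike. Muscle counts at 7D also differed with the dose, at 0.173 to 1.29% of the total for 0 mg/kg and 0.00927 to 0.0113% for 2 mg/kg.

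Other genes of the cell cycle, from lists that hold none of the 49, moved in both directions. Of 64 further genes of mitosis tested, 50 were higher and 8 lower in 7D tendons at 0 mg/kg than in control, or 78.1% and 12.5% against 35.8% and 35.6% of all genes, with a median log2 fold change of 2.21. The histone variant gene Cenpa, which marks the centromere, had 0.265 ± 0.0877 CPM (SD, n = 3) in control and 4.09 ± 1.05 CPM (n = 5) at 7D, a log2 fold change of 3.91, and Cenpw, of the same centromere complex, 3.54. Cit, the citron kinase of cytokinesis, and Cdc27, a core subunit of the anaphase-promoting complex, fell, with -1.37 and -0.95.

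Of 40 further genes of origins, polymerases and the fork, 28 were higher (70.0%) and 7 lower (17.5%), with a median of 0.79. Mcm10 and Pole2, both needed to start and extend the new strands, rose by 3.05 and 2.41. Pold2 and Pola2, subunits of polymerases delta and alpha, were lower at -1.11 and -0.93, and Pold2 had 33.2 ± 0.885 CPM in control and 15.3 ± 1.35 CPM at 7D. At 21D 19 of the 40 were higher (47.5%) and 7 lower (17.5%), against 32.2% and 33.7% of all genes. Of 24 further genes of G1 and cell cycle control, 13 were higher (54.2%) and 4 lower (16.7%) at 7D, where the shares of all genes were 35.8% and 35.6%. Cyclin F (Ccnf) and Cks2, a partner of the cyclin-dependent kinases, rose by 3.67 and 3.25, and Lin52, of the complex that contains Mybl2, and Wee1, an inhibitor of Cdk1, had -1.19 and -0.66, the latter with an adjusted p of 0.0432.

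Of 17 inhibitors of the cell cycle tested, 7 were higher (41.2%) and 4 lower (23.5%) at 7D and 0 mg/kg, with a median of 0.21, against 35.8% and 35.6% of all genes. Cdkn2a, which encodes p16 and Arf, and Cdkn1c, which encodes p57, rose by 2.98 and 1.87. Rb1, the retinoblastoma protein gene, was lower at -1.01. Ccng1, a p53 target that encodes cyclin G1, was lower at -3.99, from 3359 ± 688 CPM in control to 211 ± 40.4 CPM at 7D and 491 ± 257 CPM at 21D. The genes named from each list are the 2 that rose most and the 2 that fell most among those past the threshold.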

How the data were processed

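RNA sequencing counts of 30 rat plantaris tendons were used, grouped by the repair time and dose in the sample labels. The authors used fastp for trimming and STAR for mapping to the rn6 genome with Ensembl annotation, and deposited raw counts per gene without normalization. They also deposited a table of edgeR comparisons with average log2 CPM, log2 fold changes, p-values and FDR, of which none was used. Per the file headers it also gives gene widths as other values, and its chromosome names were used here. The methods of the study leave 4 tendons at 7D and 6 mg/kg, whereas 3 carry that label. The labels were used. No source says that tendons of a group were anything but separate rats, and p-values measure the spread between them.

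The counts went into edgeR 4.0.16 (R 4.3.3). A filter kept genes that reached a mean of 3 CPM in 1 or more of 7 groups (566 removed), libraries were scaled by TMM, and the quasi-likelihood model had a mean per group, all 30 tendons and no covariate. Comparisons were contrasts of that model, called at a Benjamini-Hochberg adjusted p under 0.05 over 12558 genes. SE is the log2 fold change divided by the square root of F. A floor of 3 counts was 0.0601 to 0.242 CPM, for counting error only. CPM is not scaled for gene length. Levels of different genes were ranked only to choose the genes shown tendon by tendon, and were otherwise not compared. The lowest chi-square between tendons of a group was 30.7 per gene, so no library was counted as deposited more than once.

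The steps were tested on simulated data for 7D 0 mg/kg against control, with 200 of 12558 genes changed. They recovered 72 of 100 2-fold and 90 of 100 4-fold changes, and 7.43% of the calls were false, more than the threshold of 0.05 aims at. Far fewer genes changed there than the 8966 called in the real comparison, and the muscle content of controls was not simulated. These rates therefore need not hold for the real comparison. The members and gene lists were chosen with earlier results of these data known. All members were named, and those with the highest mean CPM of a role group or a direction opposite to the rest are given tendon by tendon. Promoters are from RefSeq (GRCr8), matched by symbol. Alternatives were RLE scaling, library size only, totals without muscle genes, no filter, a fit of the compared groups only, a replicate block, DESeq2 1.42.0, a 1.5-fold threshold and leaving out each tendon. Leaving out repaired tendons over 5% muscle counts was chosen after seeing the data.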

Additional observations from a re-analysis of the deposited data

Results flagged for a closer look

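In 13 of 245 sets of 1 gene in 1 group of 4 or 5 tendons, or 5.31%, the highest or lowest tendon lay far from the others by Dixon's test. Chance gives about 1 in 20. Of these, 5 were in 21D 2 mg/kg replicate 3, the tendon of that group with the highest summed CPM of the 49 genes. They were Rrm1 at 61.9 CPM, Tyms at 14.5 CPM, Bub1b at 16.2 CPM, Ncapg at 7.17 CPM and Mybl2 at 11.8 CPM, each above the other 4 tendons. In 7D 0 mg/kg replicate 3, Ube2c stood out at 12.4 CPM and Plk1 at 13.2 CPM, and in replicate 1 of that group Tyms at 14.8 CPM. In the 7D 2 mg/kg group Cdc6 was high in replicate 5 at 6.03 CPM, and Ccne1 was low in replicate 4 at 4.42 CPM. Pcna was high in 21D 0 mg/kg replicate 2 at 87.9 CPM. At 21D and 6 mg/kg, Aurkb was high in replicate 1 at 21.1 CPM and Nusap1 low in replicate 3 at 7.70 CPM. All these tendons were kept. No dose effect of a listed gene differed between 7D and 21D by the interaction test.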

How the results depend on the processing

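Against control, the genes higher numbered 37 to 47 over the 6 repaired groups and all alternatives, the lowest with the compared groups only and the highest with library size only. At 0 mg/kg, where single genes were followed, none called higher changed direction. The labels number the tendons alike across groups, but same-numbered tendons came from different rats and did not deviate together. The correlation of their deviations had a median of 0.00685 over 76 pairs, from -0.701 to 0.681, against 0.00878 for 307 other pairs. With the replicate block the genes lower at 21D numbered 2 at 2 mg/kg and 5 at 6 mg/kg, against 4 and 3 without it. Among the single genes followed, these calls missed the threshold with the block: Pcna (adjusted p = 0.0569) and Hmmr (0.0529) at 21D against control, and, for 21D against 7D, Mcm4 at 0 mg/kg (0.0629) and 2 mg/kg (0.0859) and Rrm1 at 2 mg/kg (0.0549).

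Against control 1 gene, Mcm7, was lower in each repaired group. Library size only and a 1.5-fold threshold each gave 0 lower in all 6 groups, and a fit of the compared groups only gave 0 at 7D for 2 and 6 mg/kg and at 21D for 6 mg/kg. RLE scaling, totals without muscle genes and DESeq2 gave 2 at 21D for 2 and 6 mg/kg, and leaving out tendons over 5% muscle counts gave 0 at 21D and 6 mg/kg. Between 21D and 7D, DESeq2 gave 11 lower at 0 mg/kg and 1 higher at 2 mg/kg, the 1.5-fold threshold 3 and 2 lower at 0 and 2 mg/kg, and the compared groups only 2 and 5 at 2 and 6 mg/kg. Without tendons over 5% muscle counts the lower genes numbered 0 at 0 and at 6 mg/kg. The cause of these shifts was not tested. The muscle alternative leaves 3 and 2 tendons in the 21D groups at 0 and 6 mg/kg.

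Leaving out each tendon gave 41 to 43, 40 to 45 and 41 to 42 higher at 7D for 0, 2 and 6 mg/kg and 38 to 41 at each dose at 21D. The genes lower ranged from 1 to 1, 1 to 2 and 0 to 1 at 7D and from 1 to 1, 1 to 3 and 0 to 2 at 21D. From 7D to 21D, 2 to 13, 1 to 10 and 2 to 4 were lower and 0 to 0, 0 to 1 and 0 to 0 higher. The dose tests gave 0 throughout.

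With library size only, log2 values against control turned positive for Mcm7 (0.18 at 7D and 0.031 at 21D), Tpx2 (0.49 and 0.51), Cdt1 (0.61 at 21D), Gins2 (0.37 at 21D), Rrm1 (0.47 at 21D) and Ccne2 (0.57 at 21D). At 21D, Cdt1 also turned to 0.021 with no filter, 0.0087 with the compared groups only and 0.11 without the tendons over 5% muscle counts, where Ccne2 had 0.050. Leaving out 1 tendon gave Gins2 -0.084 to 0.21 and Tpx2 -0.49 to 0.067 at 7D, and Tpx2 -0.42 to 0.13, Cdt1 -0.29 to 0.46, Rrm1 -0.23 to 0.031 and Ccne2 -0.28 to 0.32 at 21D. None of these but Mcm7 was called in the main result.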
